A study of Mus musculus with 4 samples.

Results

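Cytosolic ribosomal proteins are the protein parts of the ribosomes that translate nuclear-encoded mRNAs. Their mRNA levels were compared between male and female mouse liver. Entries were taken by a rule on gene symbols that uses no measured value, though the set was chosen with earlier results of these data known. The rule takes symbols that begin with Rpl or Rps followed by a digit, plus Rplp0, Rplp1, Rplp2 and Rpsa, without the Rps6 kinases and Rps19bp1. Of 21827 gene entries, 64 met this rule, 37 of the large and 27 of the small subunit. By symbol and by the RefSeq gene table, 56 are core ribosomal proteins, 7 are ribosomal protein-like paralogs and 1 is a pseudogene. The animals were untreated male and untreated female CD-1 mice, an outbred stock, aged 8 weeks in both sexes, and the labels give no allele or agent in either. RNA of 12 livers per sex went into 4 sequenced pools, 2 per sex with 6 livers each, so single animals cannot be seen. The comparison addresses which transcripts differ in level between male and female liver. The table used here holds 1 value per gene and sex, the authors' log2 RPKM, a read count scaled to transcript length and library size, and none per pool, so the spread between pools is unknown and every adjusted p-value is the authors' own.

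A ribosome has a small subunit, which reads the mRNA, and a large subunit, which joins amino acids and carries the exit tunnel for the new protein. The proteins of both subunits are needed in matching numbers, and their mRNAs are known to share a pyrimidine-rich start, the terminal oligopyrimidine (TOP) tract, through which growth signals from mTOR control their translation together. In liver, which exports most plasma proteins, ribosomes are abundant, and mammalian genomes carry many processed pseudogenes copied from ribosomal protein mRNAs.

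A lowest level shared by unread genes implied 11.2 M counted reads for male and 14.7 M for female liver, a female-to-male ratio of 1.31, if the authors added 1 read to each gene. Albumin (Alb), the defining transcript of hepatocytes, had a log2 RPKM of 14.83 in male and 15.52 in female liver, so the labelled tissue was present in both sexes. Of all entries, 13762 carried a sex ratio and are named compared genes. A gene was called where the authors' adjusted p was under 0.05, and the sign of their normalized log2 ratio gave the direction (positive where male liver was higher). By this rule 17.4% of compared genes were called, 7.21% as male-higher and 10.2% as female-higher.

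Most ribosomal protein transcripts were not called, and the few that were moved in both directions. Of the 64 entries, 61 were compared, and 9 were called in the authors' deposited table, a share of 14.8% that lies near the 17.4% of all compared genes. Rpl26, Rpl6 and Rps4y2 were higher in male liver, 3 of 61 members. Rpl29, Rpl28, Rpl21, Rpl36, Rps19 and Rps18 were higher in female liver, 6 of 61 members. At the stricter adjusted p of 0.01, 2 were male-higher and 4 female-higher, where 4.16% and 6.05% of all compared genes were. Among the 57 members that reached a log2 RPKM of 1 in at least 1 sex, 7 were called, 3 as male-higher and 4 as female-higher, where 17.2% of all compared genes at such levels were called, 8.00% as male-higher and 9.19% as female-higher. The median log2 ratio of the 61 members was -0.20 in the authors' deposited table, against -0.02 over all compared genes, and 44 members (72.1%) had a negative ratio, that is a higher value in female liver, against 52.8% of all compared genes.

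**Figure D1:**
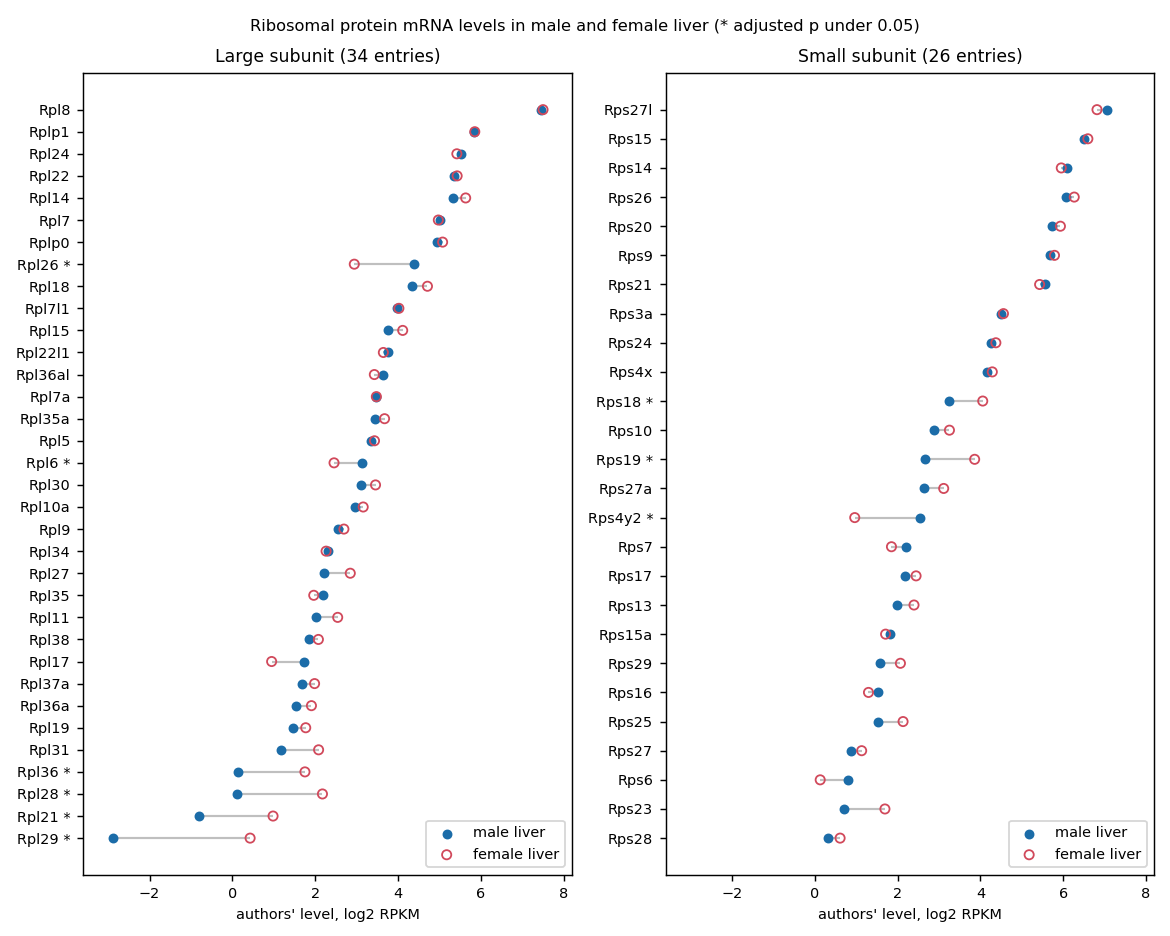
Authors' log2 RPKM of 60 of the 61 compared ribosomal protein entries in male liver (filled blue) and female liver (open red), with the large subunit on the left, the small subunit on the right and entries in order of the male level. Asterisks mark the 9 entries with an adjusted p under 0.05. The pairs of points lie close together at the top of both panels. The widest gaps lie at the bottom of the large-subunit panel, for Rpl29, Rpl21, Rpl28 and Rpl36. The order by male level itself places entries that were low in male liver at the bottom. In the small-subunit panel the widest gaps lie in the middle, for Rps4y2 and Rps19.

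Among large-subunit transcripts, 2 were called as higher in male liver. Rpl26, which in human cells is also known to bind the mRNA of the tumour suppressor p53, lies at chr11:68715085-68718040 (mm9, the build of all gene positions given here unless another is named). Its log2 RPKM was 4.39 in male and 2.94 in female liver, and the authors' deposited table lists a 2.50-fold male excess (adjusted p = 3.44e-05). It was the only called member with a male level above 4 on the log2 scale, but its mean over the sexes was 3.67. By female level, Rps18 (4.05) was the only called member above 4. Rpl6 (chr5:121654510-121659250) had a log2 RPKM of 3.14 in male and 2.46 in female liver and the authors' deposited table lists a 1.60-fold male excess (adjusted p = 0.0158). Its levels imply 125 reads in male and 102 reads in female liver, so that after scaling by implied depth counting error allows a male-to-female ratio between 1.24 and 2.13 (exact 95% interval, Clopper-Pearson). Such intervals cover counting error only, not differences between mice or pools.

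The 4 large-subunit transcripts called as higher in female liver had the 4 lowest male levels among compared large-subunit entries. That order uses the sex in which they were lower, so it is partly built into the call. By female level, Rpl17 (0.95), which was not called, lay below Rpl21 (0.98), Rpl36 (1.75) and Rpl28 (2.18). Rpl29, whose protein is also known as a heparan sulfate binding protein at the cell surface, lies at chr9:106331862-106333899. Its log2 RPKM was -2.88 in male and 0.43 in female liver (adjusted p = 0.00451 in the authors' deposited table). Those values imply no read in male and 12 reads in female liver, if the male value is the floor. Against a floor of 3 reads in male liver, Rpl29 was at least 3.05-fold higher in female liver, and counting error in both sexes allows a fold as low as 2.12. On that reading, its normalized log2 ratio of -3.31 depends on the value the authors added and is no measured fold.

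The other 3 had reads in both sexes. Rpl28 (chr7:4744567-4746149), a large-subunit protein without a bacterial counterpart, had a log2 RPKM of 0.10 in male and 2.18 in female liver and the authors' deposited table lists a 4.93-fold female excess (adjusted p = 0.00071). About 12.4 reads in male and 72.5 reads in female liver lie behind it, which allows a female-to-male ratio between 2.51 and 9.40. Rpl21 (chr5:147644466-147648608) had a log2 RPKM of -0.80 in male and 0.98 in female liver, from about 11 and 53 reads, and the authors' deposited table lists a 3.77-fold female excess (adjusted p = 5.36e-05). Rpl21 thus had the smallest adjusted p among the female-higher members, on few male reads. Rpl36 (chr17:56752818-56753669) had a log2 RPKM of 0.14 in male and 1.75 in female liver and the authors' deposited table lists a 3.63-fold female excess (adjusted p = 0.0498). Behind Rpl36 lie only about 3.7 reads in male and 18 reads in female liver, and counting error allows a female-to-male ratio between 1.13 and 13.96.

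In the small subunit, 2 core transcripts were called, both higher in female liver and both at a middle level. RPS19 is the gene most often mutated in human Diamond-Blackfan anaemia, a failure of red cell production. Mouse Rps19 (chr7:25669654-25674825) had a log2 RPKM of 2.65 in male and 3.86 in female liver and the authors' deposited table lists a 2.30-fold female excess (adjusted p = 0.000899). Rps18, which in the assembled ribosome contacts Rpl11 at a bridge between the subunits, lies at chr17:34088944-34092586. Its log2 RPKM was 3.25 in male and 4.05 in female liver, from about 58.9 reads in male and 135.9 reads in female liver, and the authors' deposited table lists a 1.73-fold female excess (adjusted p = 0.0139). For Rps18, counting error allows a female-to-male ratio between 1.29 and 2.43. Rpl11, its partner at the bridge, had a log2 RPKM of 2.01 in male and 2.54 in female liver and was not called (log2 ratio -0.54, adjusted p = 0.297 in the authors' deposited table).

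The third small-subunit call was the pseudogene entry. Rps4y2, now named Rps4l, is annotated in RefSeq as a transcribed pseudogene, and in spite of its older symbol it lies on chromosome 6, at chr6:148303178-148304118. Its log2 RPKM was 2.53 in male and 0.96 in female liver, and the authors' deposited table lists a 2.96-fold male excess (adjusted p = 7.53e-05). About 60.1 reads in male and 26.1 reads in female liver lie behind it, which allows a male-to-female ratio between 1.88 and 4.99. Rps4x, the X-linked gene that encodes the protein, had a log2 RPKM of 4.16 in male and 4.29 in female liver and was not called (log2 ratio -0.14, adjusted p = 0.603 in the authors' deposited table). Of the Rps4y2 transcript, 77.8% of 36-base words occur in no other annotated gene, so most of it can be told from Rps4x. Rpl36a, the other X-linked member, had a log2 RPKM of 1.54 in male and 1.91 in female liver and was not called either (adjusted p = 0.652 in the authors' deposited table).

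The abundant members had nearly the same level in both sexes. Rpl8, the protein that in bacteria corresponds to L2 at the catalytic centre, was the highest core transcript, with a log2 RPKM of 7.46 in male and 7.50 in female liver. Abundant core transcripts of the small subunit included Rps15 with 6.49 in male and 6.59 in female liver, Rps14 with 6.08 and 5.95, and Rps26 with 6.07 and 6.26. Rps14 stood above Rps26 in male and below it in female liver, and with no spread per pool the order of these neighbours is not settled. Among further abundant large-subunit entries, Rpl24 had 5.52 in male and 5.42 in female liver, Rpl22 5.34 and 5.43, and Rpl14 5.33 and 5.63 on the log2 RPKM scale, and none was called. At the low end of the small subunit, Rps28 had 0.32 in male and 0.61 in female liver on that scale and was not called. In male liver Rpl8 lay at or above 97.6% of compared genes and Rpl29 at or above 6.12%. Rplp1 and Rplp0, which form the stalk that recruits elongation factors together with a further protein, had a log2 RPKM of 5.84 and 4.94 in male and 5.85 and 5.08 in female liver, and neither was called.

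Levels differed far more among members than between the sexes. Rpl29, whose male value was taken as the floor, was left out here. The other 55 core transcripts spanned 8.26 log2 units (307-fold, from Rpl21 to Rpl8) in male liver and 7.37 log2 units (166-fold) in female liver. Across the 61 compared members, male and female levels had a Pearson r of 0.94 and a Spearman rho of 0.95, both descriptions across genes of the same libraries. Without Rpl29, the SD of the levels across members was 1.97 in male and 1.83 in female liver, against 1.08 in male and 1.07 in female liver for 76 mitochondrial ribosomal proteins, which form the separate ribosome inside mitochondria. The median log2 RPKM was 2.95 in male and 3.16 in female liver for the cytosolic members, against 4.25 in male and 4.29 in female liver for the mitochondrial ones. Over all compared genes it was 2.42 in male and 2.40 in female liver.

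The size of the sex ratio fell with the level. Of 20 members with a mean log2 RPKM of at least 4, none was called, where 15.7% of all compared genes at that level were, and at the unadjusted level no count can be given because the table holds adjusted p-values alone. These 20 had a median log2 ratio of -0.10 with an SD of 0.15 across members, against 0.60 across all compared genes at that level. Ratios of the latter ranged from -13.39 to 7.09, and such extremes enlarge an SD. The median absolute log2 ratio was 0.13 for the members and 0.15 for all compared genes at that level. At mean levels from 2 to under 4, 4 of 22 members were called (18.2%, against 14.6% of all compared genes), and under 2 it was 5 of 19 (26.3%, against 20.4%). Across the 61 members, the mean level and the absolute log2 ratio had a Spearman rho of -0.66, against -0.49 over all compared genes, and both measures come from the same reads. The 14 members without a length by accession, the called Rpl26, Rps19 and Rpl29 among them, could not be sorted by implied reads. Among 22 members with at least 100 implied reads in each sex, Rpl6 alone was called, and the median log2 ratio was -0.09. Of 5981 compared genes with as many reads, 832 were called (13.9%), 436 as male-higher and 396 as female-higher, and their median log2 ratio was 0.01.

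**Figure D2:**
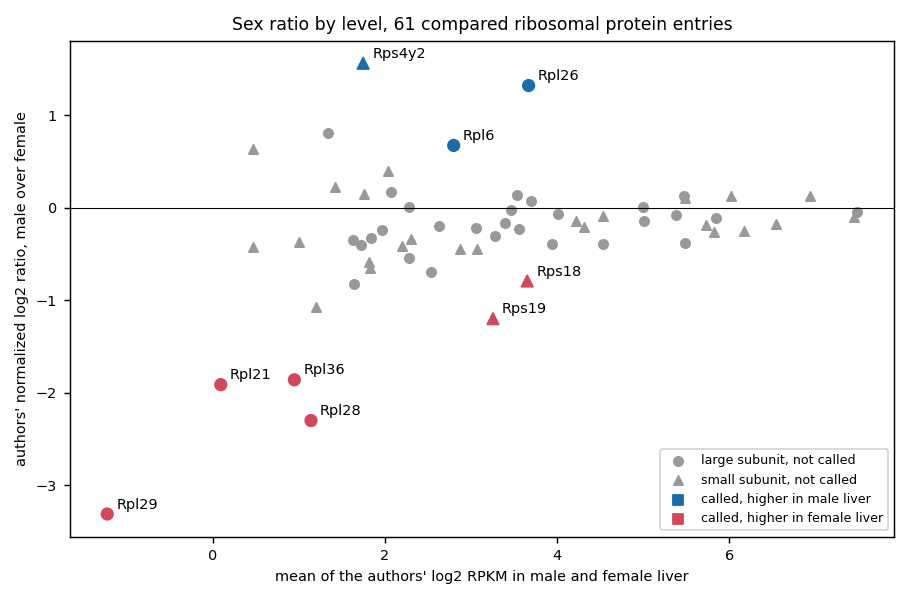
Authors' normalized log2 ratio (male over female) against the mean of their log2 RPKM in male and female liver for the 61 compared entries. Circles are large-subunit and triangles small-subunit entries, coloured where the adjusted p was under 0.05. The 20 entries at a mean level of 4 or more lie in a narrow band with an SD of 0.15, and the 4 called large-subunit entries that were higher in female liver lie at mean levels under 2.

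Large-subunit and small-subunit transcripts had like median ratios. The median log2 ratio was -0.21 for 34 large-subunit entries and -0.20 for 27 small-subunit entries in the authors' deposited table, a difference of -0.0055. Among core proteins alone the median was -0.23 for the large and -0.25 for the small subunit, so the sign of the difference turned with the choice of members. In the large subunit 6 of 34 entries were called (17.6%), 2 as male-higher and 4 as female-higher, and in the small subunit 3 of 27 (11.1%), 1 as male-higher and 2 as female-higher. Without Rpl29, taken to have no measured fold, the SD of the log2 ratios was 0.70 across 33 large-subunit entries and 0.54 across the small-subunit entries. The extremes then lay at -2.30 (Rpl28) and 1.32 (Rpl26) in the large subunit and at -1.20 (Rps19) and 1.56 (Rps4y2) in the small subunit. No test was made between the subunits, because genes of the same libraries are not replicates.

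At low levels, Rps23 and Rpl17 had ratios larger in size than those of the called Rps18 and Rpl6, but were not called. Rps23, a protein of the decoding centre, had a log2 RPKM of 0.70 in male and 1.69 in female liver, with a log2 ratio of -1.08 and an adjusted p of 0.105 in the authors' deposited table. Rpl17 had a log2 RPKM of 1.74 in male and 0.95 in female liver, with a log2 ratio of 0.81 and an adjusted p of 0.0927 in the authors' deposited table. Rps6, the small-subunit protein phosphorylated by the S6 kinases, had 0.80 in male and 0.13 in female liver on the log2 RPKM scale (log2 ratio 0.64, adjusted p = 0.466 in the authors' deposited table). These rested on few reads, about 16.1 in male and 43.6 in female liver for Rps23 and 28 in male and 21 in female liver for Rpl17. Rps7, which in human cells can bind the p53 regulator MDM2, had a log2 RPKM of 2.21 in male and 1.85 in female liver (log2 ratio 0.39, adjusted p = 0.21 in the authors' deposited table). Over the 47 compared members with a known transcript length, the counting interval of the ratio included 1 for 31 and lay to one side of it for 16, among them all 6 called members with such a length.

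Rpl5 and Rps27a, which have a further known role, were not called. Rpl5, which with Rpl11 and the 5S rRNA forms a particle that can bind MDM2, had a log2 RPKM of 3.35 in male and 3.43 in female liver (adjusted p = 0.435 in the authors' deposited table). Rps27a, made as a fusion with ubiquitin, had 2.64 in male and 3.11 in female liver on the log2 RPKM scale (adjusted p = 0.329 in the authors' deposited table). Outside the symbol rule, Fau encodes a small-subunit protein fused to a ubiquitin-like one. Its log2 RPKM was 2.13 in male and 1.95 in female liver, and it was not called.

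Paralogs were read beside the genes they resemble. Rps27l, a p53-inducible paralog of Rps27, was among the most abundant entries, with a log2 RPKM of 7.06 in male and 6.81 in female liver. Rps27 had 0.87 in male and 1.13 in female liver on the same scale, so the paralog's level was 73.0-fold that of Rps27 in male and 51.4-fold in female liver. Neither was called (adjusted p = 0.562 for Rps27l and 1 for Rps27 in the authors' deposited table). Rpl36al, an autosomal relative of the X-linked Rpl36a, had a log2 RPKM of 3.63 in male and 3.43 in female liver, 4.25-fold the level of Rpl36a in male and 2.87-fold in female liver. Rpl22l1 stood at 0.33 times the level of Rpl22 in male and 0.29 times in female liver, with a log2 RPKM of 3.75 in male and 3.65 in female liver. Rpl7l1, whose log2 RPKM was 3.99 in male and 4.02 in female liver, stood at 0.49 times the level of Rpl7 in male and 0.52 times in female liver. None of these 4 paralogs was called.

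The coding sequences of both more abundant paralogs show how far reads can tell them from their relatives. The first 90 coding bases follow, from GENCODE vM21 transcripts (start codon of the longest open reading frame, 5′ to 3′), with capitals where the members of a pair differ.
Rps27l: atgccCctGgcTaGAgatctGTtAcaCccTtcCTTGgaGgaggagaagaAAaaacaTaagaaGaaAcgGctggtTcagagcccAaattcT
Rps27: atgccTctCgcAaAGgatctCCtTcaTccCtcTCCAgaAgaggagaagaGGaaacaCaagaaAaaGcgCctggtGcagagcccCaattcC
Rpl36al: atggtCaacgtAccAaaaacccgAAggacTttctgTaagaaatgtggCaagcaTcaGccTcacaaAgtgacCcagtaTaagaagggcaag
Rpl36a: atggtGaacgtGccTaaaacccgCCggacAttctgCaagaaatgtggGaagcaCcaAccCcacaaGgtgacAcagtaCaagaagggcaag
Over the whole coding sequence, Rps27l and Rps27 are 76.1% identical with 61 mismatches in 255 bases, and their longest identical run is 11 bases. Rpl36al and Rpl36a are 87.9% identical with 39 mismatches in 321 bases, and their longest identical run is 24 bases. No 36-base stretch of coding sequence is therefore shared within either pair. Against all annotated genes, pseudogenes included, 72.2% of 36-base words were unique for Rps27l and 1.29% for Rps27, and 35.6% for Rpl36al and 13.6% for Rpl36a, and the part of this in the level differences was not tested. The remaining paralogs had few or no reads. Rpl10l and Rpl39l were at the floor in male and female liver, and Rpl3l, a paralog of striated muscle, had 1 implied read in male and none in female liver, too few for a ratio. Their ratios were set to 1 in the authors' deposited table and were not read as calls.

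Ribosomal protein transcripts shared more sequence with other annotated genes than most transcripts did. The unique share, the percentage of a transcript's 36-base words found in no other GENCODE vM21 gene on either strand, had a median of 37.0% over the 61 compared members, against 99.7% over all compared genes and 95.3% over the 76 mitochondrial ribosomal proteins. It was under 50% for 41 of 61 members and over 90% for 5, among them Rps15a (92.2%), Rpl22 (91.7%), Rpl8 (90.6%) and Rps20 (90.3%). Annotated pseudogenes that share at least 1 word with a member numbered between 0 and 149 per member, with a median of 11.5. Rpl7a had the most, 149, followed by Rpl29 with 111 and Rpl21 with 102. Rps27 had the lowest unique share (1.29%), and Rpl35 followed with 1.76%.

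Members with a high unique share included the most abundant ones. The 6 compared members with a unique share of at least 80% had a median log2 RPKM of 5.53 in male and 5.68 in female liver, and the 14 members under 20% had 2.17 in male and 2.42 in female liver. In between, the medians were 3.14 in male and 3.25 in female liver for 27 members from 20% to under 50%, and 2.42 in male and 2.22 in female liver for 14 members from 50% to under 80%. Across the 61 members the unique share and the male level had a Pearson r of 0.36 and a Spearman rho of 0.30, while over 13710 compared genes the values were -0.02 and -0.03. The sources used here do not say how the authors treated reads that match several places, so the part of shared reads in these levels was not tested. None of the 6 members with a unique share of at least 80% was called in the authors' deposited table, where 2034 of 11906 compared genes with such a share were (17.1%). Of the 9 called members, Rps4y2 (77.8%), Rpl21 (73.3%) and Rpl28 (50.6%) had a unique share above 50%, and the others lay between 8.91% (Rpl36) and 43.1% (Rps19).

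**Figure D3:**
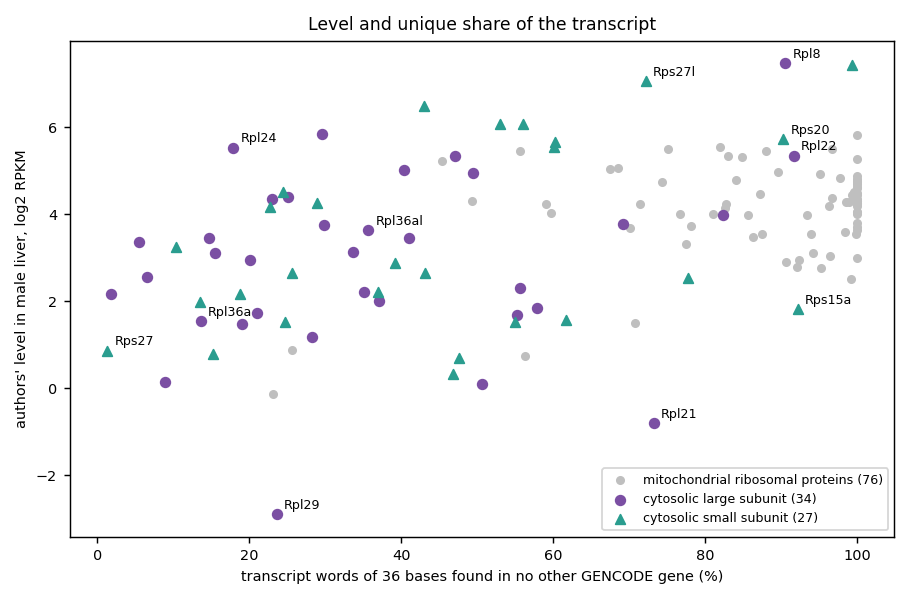
Authors' log2 RPKM in male liver against the percentage of a transcript's 36-base words found in no other GENCODE gene, for 34 large-subunit (purple circles), 27 small-subunit (green triangles) and 76 mitochondrial ribosomal protein entries (grey). Mitochondrial ribosomal proteins gather at the right with a median of 95.3%, and cytosolic ones spread to the left with a median of 37.0%.

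Pyrimidine motifs, which the symbol rule did not use, were more frequent at ribosomal protein gene starts than at gene starts in general. RefSeq start windows (GRCm38.p6) were found for 43 of the 56 core genes, and motifs were searched on the transcribed strand from 30 bases before to 50 bases after the start. CTCTTTC, part of a TOP-like pyrimidine run, occurred in 12 of the 43 core genes (27.9%), in none of 66 mitochondrial ribosomal protein genes and in 1.28% of 27025 genes. Its shorter form CTTTC, contained in the first motif, occurred in 48.8% of core genes, against 13.6% of mitochondrial ribosomal protein genes and 11.8% of all genes. CTTCC, the other common form, occurred in 41.9% of core genes, 27.3% of mitochondrial ribosomal protein genes and 18.5% of all genes. CTTTC was found at 60.9% of 23 large-subunit and 35% of 20 small-subunit starts, and CTTCC at 30.4% of large-subunit and 55% of small-subunit starts. On both strands of the 300-base window, CCGGAAG, a site of ETS family factors, occurred in 41.9% of core genes, 34.8% of mitochondrial ribosomal protein genes and 9.93% of all genes. Its reverse complement, CTTCCGG, contains CTTCC, so the counts of CTTCC and CCGGAAG can share sites and are not separate findings. TATAAA occurred in 9.30% of core genes, against 15.7% of all genes, and AAGATGGC, a core of the YY1 site, in 9.30% of core genes, 19.7% of mitochondrial ribosomal protein genes and 3.19% of all genes. A match is a description of letters and shows no binding.

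Starts of 4 members, chosen because they hold such a motif, show where it lies. Rpl26 was higher in male liver, Rpl28 and Rps18 were higher in female liver, and Rps26 was abundant and not called. Each run goes from 20 bases before to 30 bases after the RefSeq start, 5′ to 3′ on the gene's strand (GRCm38.p6), at chr11:68901546-68901595 (+), chr7:4792945-4792994 (+), chr17:33955636-33955685 (-) and chr10:128626477-128626526 (-), with capitals at CTTTC or CTTCC.
Rpl26: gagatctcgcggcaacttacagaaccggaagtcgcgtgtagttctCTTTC
Rpl28: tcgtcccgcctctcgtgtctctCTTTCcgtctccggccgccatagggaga
Rps18: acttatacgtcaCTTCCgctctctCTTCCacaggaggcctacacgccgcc
Rps26: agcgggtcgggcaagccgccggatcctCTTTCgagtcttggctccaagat
In Rpl26 the motif forms the last bases printed and begins at base 26 counted from the start. Of 15 starts of named members read over this stretch, 8 held a motif and 7 did not, and the called Rpl6 and Rps19 were among those without. Only exact matches to CTTTC or CTTCC were counted. A start without a match can still hold another pyrimidine run, as those of Rpl14 and Rps6 do.

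Other parts of the translation machinery were mostly not called. None of 7 elongation and termination factors was called, and Eef1a1, which brings aminoacyl-tRNA to the ribosome and is itself a TOP mRNA, had a log2 RPKM of 8.28 in male and 8.28 in female liver. The list of 15 TOP mRNAs outside the ribosome held no call either, with a median log2 ratio of -0.01. Of 31 initiation factors, 3 were called (9.68%, against 17.4% of all compared genes), all of them female-higher by the authors' deposited table. These were Eif2b4, Eif4a1 and Eif2s3x, and Eif2s3x, an X-linked gene known to escape X inactivation, had a 2.34-fold female excess in the authors' deposited table (adjusted p = 0.0048). Eif4a1, the RNA helicase of the cap-binding complex, had a log2 RPKM of 3.02 in male and 3.48 in female liver (1.39-fold, adjusted p = 0.0484 in the authors' deposited table).

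Few proteins of the mitochondrial ribosome were called. Of its 76 proteins, 3 were called (3.95%, against 17.4% of all compared genes), all higher in female liver. They were Mrpl23 among 47 large-subunit proteins and Mrps16 and Mrps25 among 29 small-subunit proteins. Mrpl23 had a log2 RPKM of -0.13 in male and 1.60 in female liver and the authors' deposited table lists a 3.82-fold female excess (adjusted p = 0.00614). The median log2 ratio was 0.01 over the 76 proteins, and the SD across them was 0.35, against 0.63 across 60 cytosolic members, leaving out Rpl29.

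Neither ribosome assembly factors nor growth regulators had a larger share called than all compared genes (17.4%). The few calls among assembly factors were female-higher, and the few among regulators were male-higher. Of 48 assembly factors and RNA polymerase I genes, 3 were called (6.25%), all higher in female liver, and the median log2 ratio was -0.11. Nob1, the nuclease that makes the final cut of 18S rRNA, was 1.78-fold higher in female liver (adjusted p = 0.00342), and Rrp9, a protein of the U3 small nucleolar particle, was 2.16-fold higher in female liver (adjusted p = 0.0017), both in the authors' deposited table. Tsr1, an assembly factor of the small subunit, had a 1.38-fold female excess in the authors' deposited table (adjusted p = 0.0317). Among 19 regulators of ribosome production, 3 were called (15.8%), a share near that of all compared genes, and all 3 were higher in male liver. Mycn, a transcription factor that drives growth genes, had a log2 RPKM of 0.31 in male and -1.63 in female liver and the authors' deposited table lists a 3.94-fold male excess (adjusted p = 8.98e-05). Myc, its more widely expressed relative, was 1.47-fold higher in male liver (adjusted p = 0.0112), and Maf1, a repressor of RNA polymerase III, was 1.47-fold higher in male liver (adjusted p = 0.0167), both in the authors' deposited table. Mtor and Larp1, which binds TOP mRNAs, were not called (adjusted p = 0.242 and 0.538 in the authors' deposited table).

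**Figure D4:**
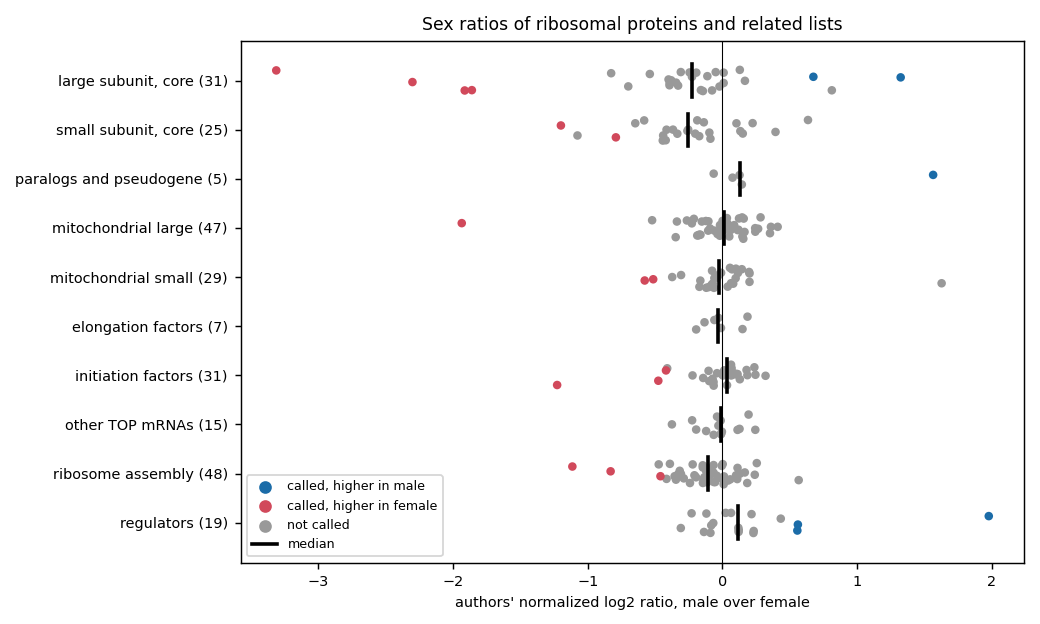
Authors' normalized log2 ratio (male over female) for core ribosomal proteins, paralogs and related lists, 1 point per compared gene, with the number of genes in brackets and a black bar at each median. Blue points were called higher in male and red points higher in female liver. The lowest core point, at -3.31, is Rpl29, taken to have no measured fold, and the medians of the mitochondrial ribosomal proteins of the 2 subunits lie at 0.01 and -0.03.

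Calls among stellate, Kupffer, endothelial and proliferation markers were all female-higher. Over all compared genes 17.4% were called, 7.21% as male-higher and 10.2% as female-higher. Of 8 stellate cell markers, 5 were called as higher in female liver, and the summed RPKM of all 8 was 128 in male and 173 in female liver. Dcn (log2 RPKM 6.18 in male and 6.59 in female) was the largest part of both sums. Of the 8 ratios, 7 were negative and 1, that of Des, was positive. Of 8 Kupffer cell markers, 4 were called as higher in female liver, with a summed RPKM of 152 in male and 191 in female liver. Endothelial markers had 1 call of 8, higher in female liver, with 148 in male and 162 in female liver as summed RPKM, and proliferation markers had 3 of 8, all higher in female liver, with 4.77 in male and 6.52 in female liver. These calls had the same direction as the median ratio of the ribosomal proteins, and their part in the ribosomal protein ratios was not tested. No marker with an entry lay at the floor in both sexes. Among 12 hepatocyte markers, 3 were called as higher in male and 3 as higher in female liver, and their summed RPKM was 64139 in male and 77219 in female liver. Alb, itself called as higher in female liver (log2 RPKM 14.83 in male and 15.52 in female), was the largest part of both sums. Of the 12 ratios, 5 were positive and 7 negative, so the sums give no direction for the list. Cholangiocyte markers had 1 call in each direction of 6, with a summed RPKM of 46.5 in male and 31.5 in female liver, and lymphocyte markers 1 in each direction of 10, with 8.21 in male and 8.44 in female liver. Of 5 compared erythroid genes, Alas2 alone was called, with a 6.67-fold male excess in the authors' deposited table (adjusted p = 2.59e-38). Its log2 RPKM was 6.43 in male and 3.75 in female liver, while Hbb-b1, a beta-globin gene, had 6.20 in male and 6.21 in female liver, and the list with Alas2 summed to an RPKM of 183 in male and 112 in female liver. In bulk tissue, fewer cells of a type and less RNA per cell cannot be told apart.

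Overlapping genes on the opposite strand were found for 5 members, namely Rpl31 with Tbc1d8, Rpl35 with Wdr38, Rpl5 with Fam69a, Rps25 with Ccdc84 and Rps4y2 with Tmtc1. The sources used here do not say whether the authors counted by strand, so reads of these pairs may be mixed. Tmtc1 had a log2 RPKM of -2.85 in male and -2.77 in female liver, far below Rps4y2 in both sexes. Fam69a, with 2.49 in male and 2.37 in female liver, lay below Rpl5. Ccdc84 had 3 in male and 3.54 in female liver, above Rps25 with 1.52 and 2.13. Tbc1d8 had 1.62 in male and 2.22 in female liver, above Rpl31 with 1.19 and 2.08. The part of mixed reads in the ratios of these members was not tested. Of the 5 overlapping genes, 4 were compared and none of these was called. Wdr38 had a log2 RPKM of -4.92 in male and -2.14 in female liver and was set aside, since the authors' deposited table sets its ratio to 1 beside an adjusted p of 0.017.

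Several core ribosomal proteins were not analysed here, so the counts above cover part of each subunit.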

How the data were processed

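Poly-A-enriched, strand-specific RNA of 4 liver pools was sequenced, per the labels' protocols. Per the submitters' processing notes, Bowtie and edgeR were used with build mm9; neither version nor role is given. Per the file headers, the single table of 21827 entries holds the log2 RPKM of each sex, a normalized log2 ratio and a linear ratio (male over female), a signed fold change, an adjusted p-value and a flag for expressed genes. The signed fold change is a deposited score, negative for female-higher genes. Not given in the sources used here are the p-value adjustment and the handling of reads that match several places or strands.

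The table does not separate pools, so the planned count test could not be run and the authors' adjusted p-value was used (called under 0.05). Genes at the floor in both sexes (6590), above it in 1 sex with the ratio set to 1 (1460) or without a level (15) were set aside, leaving 13762 compared genes. Reads were implied from the floor, taken as 1 added read, with transcript lengths matched by accession to GENCODE vM21. The floor implied the matched length to within 2% for 3462 (74.2%) of 4668 floor genes that had one. The members lacking a length by accession number 14, and for these no interval was computed, apart from the bound of Rpl29. Intervals are exact at 95% (Clopper-Pearson). Unique shares were computed with 36-base words, and with 50-base words as an alternative, from transcripts matched by accession for 50 and by symbol for 14 members. Read implication and word counting were tested on simulated data.

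The members and the 16 gene lists were chosen with earlier results of these data known. Named are all called members, the 5 highest and 3 lowest levels and the 3 largest and 3 smallest ratios of each subunit, paralogs and the pseudogene; members described for their role, the X-linked pair and the partners of a gene were added after their values were seen. For other lists, called genes (at most 4) or the most abundant are named, and Mtor and Larp1 were added in the same way. Of the listed genes, 20 were not found by symbol. Values of a few single genes that these rules name are not reported here. Start coordinates were converted to count from 1. Python 3.11.15, NumPy 2.4.6, pandas 2.3.3, SciPy 1.17.1 and Matplotlib 3.10.9 were used.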

Additional observations from a re-analysis of the deposited data

How the results depend on the processing

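The count of 9 called members was 6 at an adjusted p under 0.01, 7 among members that reached a log2 RPKM of 1 in at least 1 sex, and 8 without paralogs and the pseudogene. After seeing the data, members with at least 100 implied reads in each sex were counted alone: 1 of 22 was called, 1 as male-higher and 0 as female-higher, and the median log2 ratio of -0.20 became -0.093. Of all compared genes with as many reads, 13.9% were called. The 14 members lacking a length by accession, 3 of them called, could not enter this setting. Among the 20 members with at least 50% unique words, also chosen after seeing the data, 3 were called, 1 as male-higher and 2 as female-higher, and the median log2 ratio was -0.087. Of all compared genes with that share, 17.2% were called. Their median log2 RPKM was 3.88 in male and 4.07 in female liver, against 2.95 in male and 3.16 in female liver over all members. Fewer members enter both settings, and beyond that the cause was not tested. The plain difference of log2 RPKM gave a median of -0.14, the mean -0.28, centring on all compared genes -0.18, and Rpl29 at its bound left -0.20. The large minus small difference of -0.0055 ranged from -0.18 (mean) to 0.03 (without paralogs), so neither subunit can be placed above the other. All 28 named members kept the sign of their ratio under the plain difference, with a largest shift of 0.25, while the median of all compared genes moved by 0.03. With 50-base words the median unique share was 40%. Depth limits the low members: counting intervals of 31 of 47 ratios included 1.

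No paired analysis was possible because the table gives 1 value per sex. For the same reason, leaving out pools and the DESeq2 size factors were not run.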
